A study of Oryza sativa with 24 samples.

Results

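The response of rice leaves to 120 min of trans-zeatin was set against that of rice roots, gene by gene. Trans-zeatin (tZ) is an active cytokinin. The difference between organs was the interaction, that is, the leaf change (Leaf tZ minus Leaf DMSO) minus the root change (Root tZ minus Root DMSO), on a log2(signal + 20) scale. Its group means came from 12 of the 24 arrays, 3 in each of 4 groups taken from the sample titles. It covered 30501 of 57194 probe sets, those whose mean lay above a background limit in both organs. That limit and the spread behind each p-value came from all 24 arrays. At that limit the mean log2 value was 5.55 in leaf and 5.88 in root, signals of 27.0 and 38.9. Each probe set called in the interaction, at an adjusted p below 0.05 in limma, was then placed by its change in each organ: changed in 1 organ only, changed in the same direction by different amounts, changed in opposite directions, or changed in neither by itself.

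Leaf tZ and Root tZ stood for 120 min at 30 °C in water with tZ at 5 µM in its solvent dimethylsulfoxide (DMSO) at 0.1%, and Leaf DMSO and Root DMSO in water with 0.1% DMSO alone. All came from 2-week-old hydroponic seedlings of the cultivar Nipponbare. The leaf was the third leaf, cut off at the lamina joint, and the root was the whole root system cut from the plant, so every group carried the effects of excision and incubation. Nothing in the labels says whether replicate arrays stem from different plants, so p-values cover only the spread between arrays, which may be technical. In tissue pieces, fewer cells of a type and less RNA per cell cannot be told apart.

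Cytokinins bind membrane histidine kinases and pass a phosphate through phosphotransfer proteins to type-B response regulators, which switch genes on in the nucleus. Type-A response regulators are among the first genes induced and act back on the pathway as inhibitors, and cytokinin dehydrogenases break the hormone down. In shoots cytokinins are known for cell division, chloroplast development and delayed senescence, and in roots for restraining growth and nutrient uptake.

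The tissue entry reads root even for leaf samples, so the organs were checked by their marker genes. The rubisco small subunit gene OsrbcS read 10469 to 12156 in Leaf tZ and 16951 to 18231 in Leaf DMSO, against 187 to 232 in Root tZ and 204 to 244 in Root DMSO. OsCASP1, of the Casparian strip proteins of the root endodermis, read 4.0 to 15.9 in Leaf tZ and 2.5 to 23.5 in Leaf DMSO, against 2019 to 2176 in Root tZ and 2134 to 2207 in Root DMSO. The values therefore matched the titles, which were followed. Array medians ran from 47.6 to 54.6 in leaf and from 68.2 to 86.7 in root, and log2 values correlated at 0.978 to 0.982 between leaf replicates and at 0.960 to 0.967 between root replicates. Root tZ replicate 2 lay more than 1 log2 unit from both other arrays of its group for 881 probe sets, of which 411 were above. The other 11 arrays had 311 to 786 such probe sets. The highest of these was Root DMSO replicate 2, with 352 of its 786 above.

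The treatment labels were in doubt. The 5 type-A regulators tested, OsRR1, OsRR2, OsRR4, OsRR6 and OsRR9, are the standard check of cytokinin treatment. In leaf and in root, the lowest array labelled DMSO 120 min lay above the highest one labelled tZ 30 min for all 5. In leaf, OsRR9 read 12032, 12220 and 13017 in arrays labelled tZ 120 min and 13037, 13366 and 11877 in those labelled DMSO 120 min, but 1023, 934 and 1012 in those labelled tZ 30 min. Protocols of root samples titled tZ 30 min also give both incubation times. Whether labels were exchanged was not tested. All groups below are those of the titles, and most gene and list results are also given with the arrays labelled tZ 30 min in place of those labelled DMSO 120 min. Both versions share the tZ 120 min arrays, so their values are set side by side and no agreement is read from them.

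**Figure D1:**
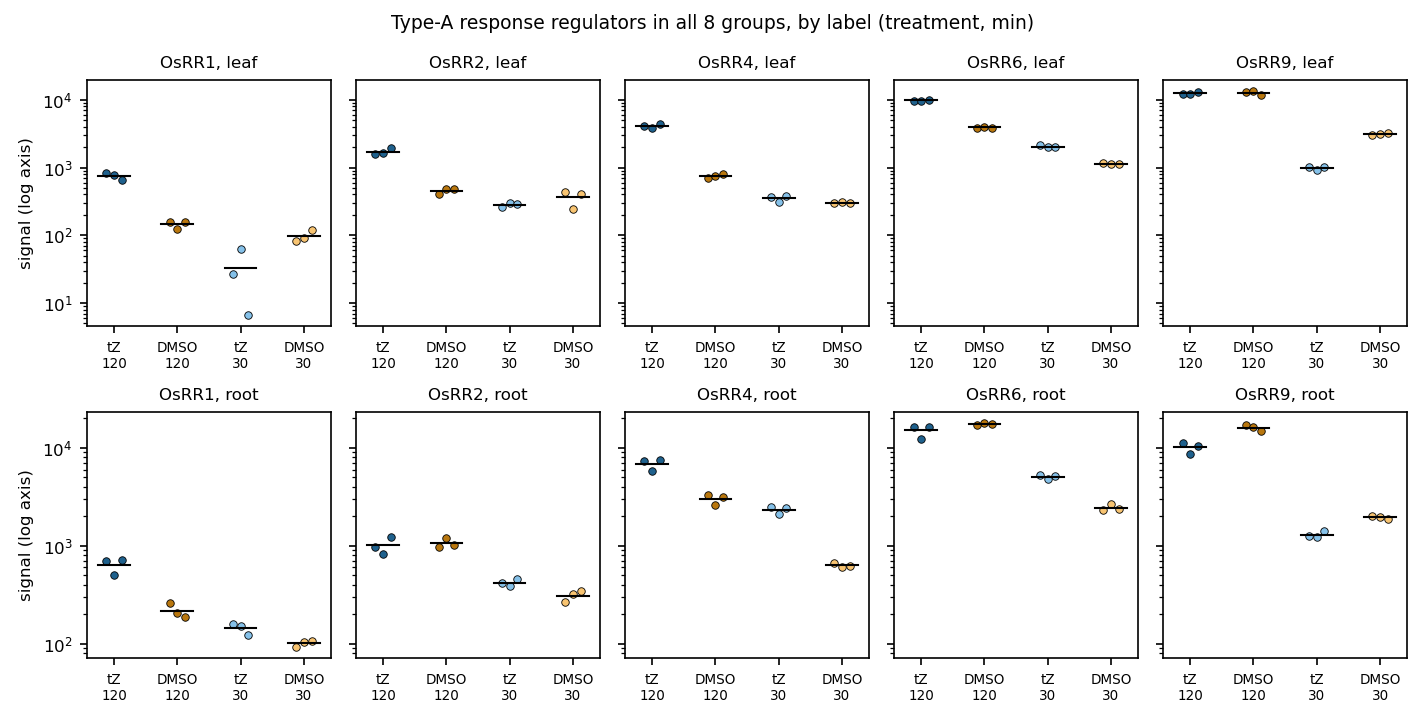
Signal of the 5 tested type-A response regulators (log axis, linear signal units) in each array of the 8 labelled groups, leaf above and root below; points are arrays and bars are means of 3. Every point labelled DMSO 120 min lies above every point labelled tZ 30 min.

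Between the organs, the interaction was called for 11126 probe sets, 36.5% of those tested. The leaf response was above the root response for 6282 (20.6%) and below it for 4844 (15.9%). In leaf alone 12701 probe sets (41.6%) were called, 6668 higher (21.9%) and 6033 lower (19.8%) in tZ, and in root alone 10499 (34.4%) were called, 4037 higher (13.2%) and 6462 lower (21.2%). The interaction was at least 1 log2 unit in size for 4624 of the called probe sets and at least 2 for 855. The median interaction over all probe sets tested was 0.10. It was -0.08 after the arrays were shifted to the same median, and the share of calls with leaf above root was then 40.7% instead of 56.5%. With the arrays labelled tZ 30 min in place of those labelled DMSO 120 min, 1231 probe sets (4.04%) were called, 473 with leaf above root (1.55%) and 758 below (2.49%), and the median was -0.002. In that version 1736 probe sets (5.69%) were called in leaf, 759 higher (2.49%) and 977 lower (3.20%), and 3012 (9.88%) in root, 1675 higher (5.49%) and 1337 lower (4.38%).

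Genes that changed in leaf only were the largest class, with 4279 probe sets (14.0% of those tested). Of these 2584 were higher and 1695 lower in Leaf tZ, and their median size of change was 0.75 in leaf and 0.13 in root. Root only held 2472 (8.10%), 1037 higher and 1435 lower in Root tZ, with a median size of 0.14 in leaf and 0.74 in root. Opposite directions held 2434 (7.98%), of which 1557 were higher in leaf and lower in root and 877 the reverse. The same direction with a different size held 1517 (4.97%), where 303 rose more in leaf, 382 rose more in root, 694 fell more in leaf and 138 fell more in root. The last 424 (1.39%) were called in neither organ by itself. An effect in 1 organ alone did not make a difference between organs: of 6373 probe sets called in leaf and not in root, 2094 had no interaction call, and of 4171 called in root and not in leaf, 1699 had none. Likewise 2377 of the 3894 called in both organs with the same sign had none. Against the arrays labelled tZ 30 min the classes held 368 leaf only, 599 root only, 73 opposite, 102 same direction and 89 neither.

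**Figure D2:**
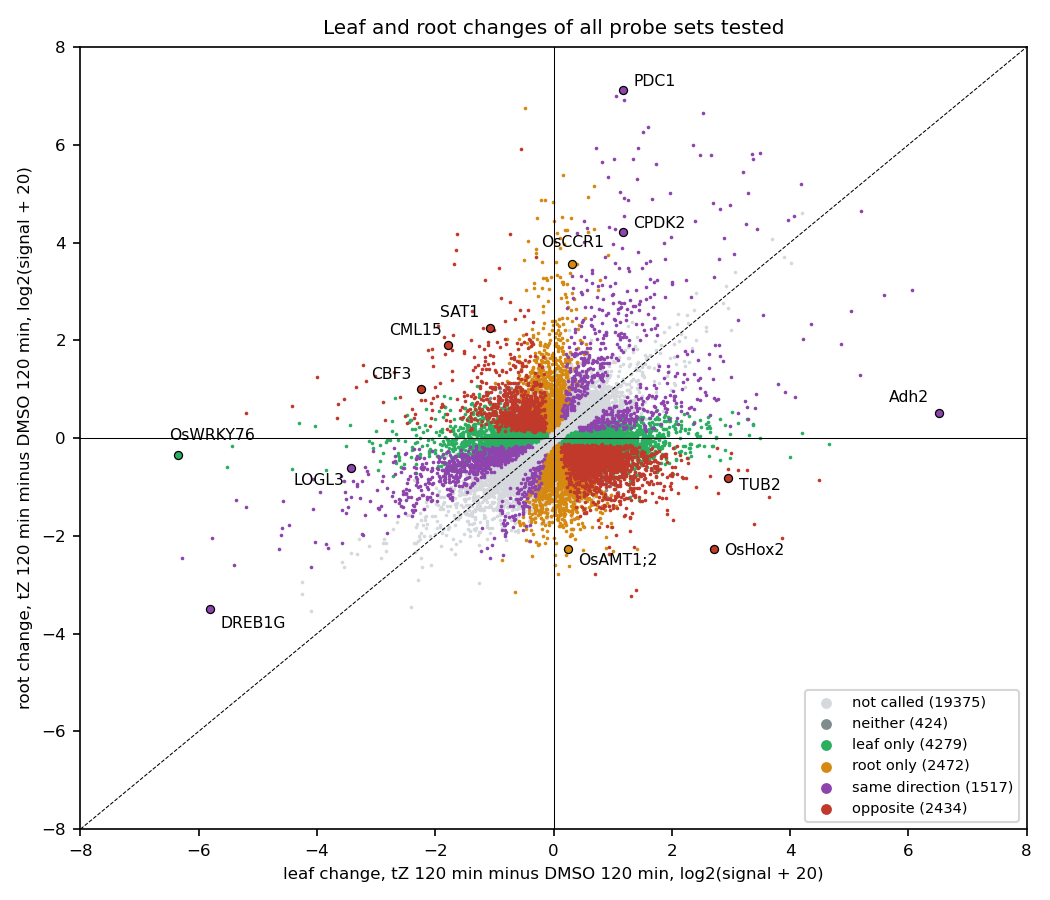
Leaf change (x axis) and root change (y axis) of the 30501 probe sets tested, both tZ 120 min minus DMSO 120 min on the log2(signal + 20) scale, coloured by class; the dashed line marks equal change. Calls lie away from the line, where uncalled probe sets also occur, and the 2434 opposite probe sets lie at the upper left and lower right.

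**Figure D3:**
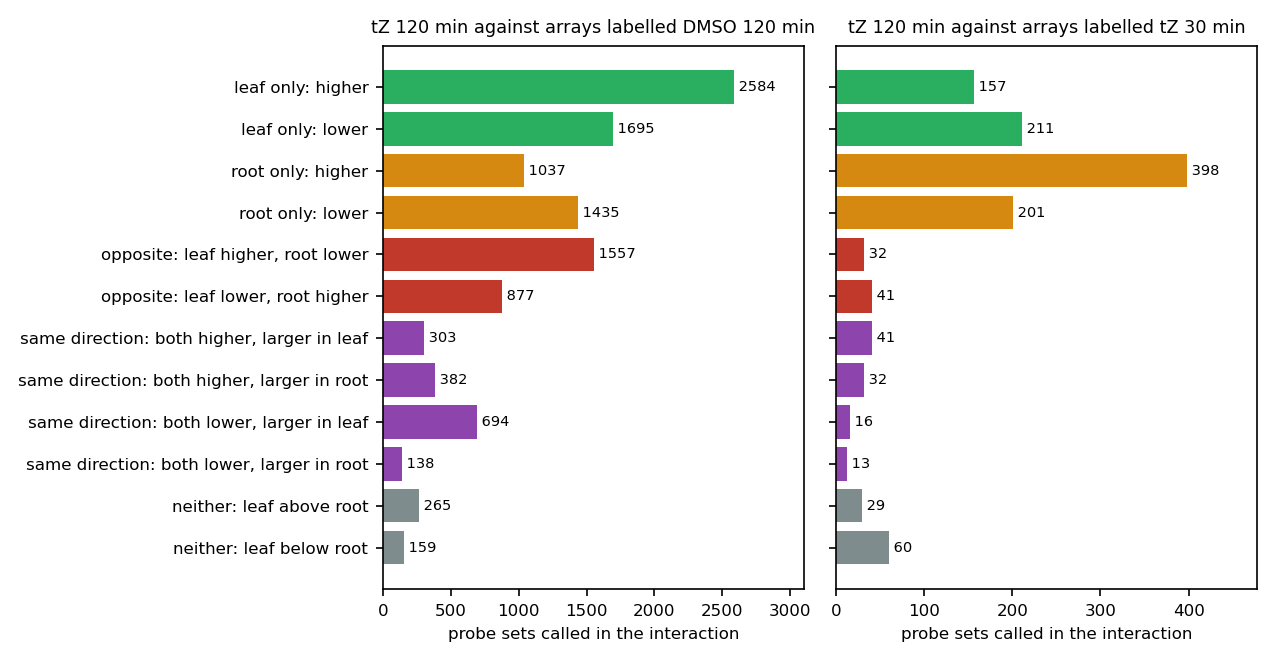
Number of probe sets called in the interaction, by class and direction, for tZ 120 min against arrays labelled DMSO 120 min (left) and against arrays labelled tZ 30 min (right); the x axes differ in scale. Leaf only, higher, is the longest bar on the left with 2584 probe sets, and root only, higher, on the right with 398.

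Of the 2093 genes tested that carry a name other than a locus number, 1133 were called in the interaction. With or without a name, 7258 of 14953 genes tested were called, beside 36.5% of all probe sets. Among the 1133 named genes called, 311 were opposite, 177 same direction, 374 leaf only, 236 root only and 35 neither. Of all probe sets called in the interaction, these classes held 21.9%, 13.6%, 38.5%, 22.2% and 3.8%. The largest of each kind are described below, with each gene's values from its brightest tested probe set.

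Among genes that rose in leaf and fell in root, OsHox2 (Gene ID 4340070), a homeodomain-leucine zipper transcription factor, had the largest interaction. It read 728, 628 and 781 in Leaf tZ and 87.0, 86.3 and 101.5 in Leaf DMSO. It read 349.8, 369.5 and 266 in Root tZ and 1866, 1410 and 1667 in Root DMSO. Neither pair of groups overlapped, and the 2 solvent groups stood furthest apart. The leaf change was 2.71 ± 0.26 and the root change -2.26 ± 0.26 (log2, SE), an interaction of 4.97 ± 0.37 (adjusted p = 1e-10). With labelled tZ 30 min as the other group both organs rose, by 1.52 in leaf and 1.50 in root, and the interaction was 0.02 (adjusted p = 0.99).

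TUB2 (Gene ID 4331315), a beta-tubulin of the microtubules, read 3143, 3171 and 2821 in Leaf tZ and 363, 361 and 399 in Leaf DMSO. Its root arrays read 3462, 3640 and 3183 in tZ and 6137, 5615 and 6355 in DMSO. In tZ the organs stood close together, whereas in DMSO root was far above leaf. The interaction was 3.77 ± 0.11 (adjusted p = 1.9e-17), and 0.36 (adjusted p = 0.075) against the arrays labelled tZ 30 min. OsACS2 (Gene ID 4336750), an aminocyclopropane carboxylate synthase of ethylene production, read 734, 684 and 669.8 in Leaf tZ, 291, 278 and 309 in Leaf DMSO, 54.4, 221 and 67.6 in Root tZ and 288, 364 and 348 in Root DMSO. The groups did not overlap in either organ, although Root tZ replicate 2 lay well above the other arrays of its group. Its interaction was 2.79 ± 0.37 (adjusted p = 1.3e-06), and 0.43 (adjusted p = 0.64) against the arrays labelled tZ 30 min.

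OsCKX4 (Gene ID 4326515) encodes a cytokinin dehydrogenase. It read 3075, 3003 and 2745 in Leaf tZ and 1116, 1069 and 1254 in Leaf DMSO. It read 414, 325 and 446 in Root tZ and 1013, 762 and 972 in Root DMSO. Leaf tZ was the highest group and Root tZ the lowest, and the solvent groups lay between them. The interaction was 2.52 ± 0.20 (adjusted p = 3.7e-10). OsCKX4 rose in both organs against the arrays labelled tZ 30 min, by 2.44 in leaf and 1.83 in root, and the interaction of 0.62 was not called (adjusted p = 0.093). XBOS31, an ankyrin-repeat RING protein, and OsGH3-2, which joins the auxin indole-3-acetic acid to amino acids, had interactions of 2.73 and 2.60 (adjusted p = 4.8e-11 each). In the labelled tZ 30 min version OsGH3-2 stood at 0.68 (adjusted p = 0.035) and XBOS31 at -0.50 (adjusted p = 0.18).

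The homeodomain-leucine zipper gene OsHox4 also rose in leaf (1.71) and fell in root (-0.70), and its interaction was 2.41 ± 0.16 (adjusted p = 1.5e-11). With the arrays labelled tZ 30 min its sign turned, to -1.27 (adjusted p = 1.7e-05). OsPCNA, the sliding clamp of DNA replication, rose by 0.61 in leaf and fell by 0.85 on the log2 scale in root. Its interaction was 1.46 ± 0.12 (adjusted p = 1.1e-09), and 0.20 (adjusted p = 0.47) against the arrays labelled tZ 30 min.

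Among genes that fell in leaf and rose in root, CML15 (Gene ID 4338633), a calmodulin-like calcium sensor, had the largest interaction. It read 488, 553 and 637 in Leaf tZ and 2045, 2152 and 1746 in Leaf DMSO. It read 14365, 11194 and 13628 in Root tZ and 3480, 3565 and 3355 in Root DMSO. Both organs were separated without overlap, and Root tZ was the highest group. The leaf change was -1.79 ± 0.09, the root change 1.90 ± 0.09 and the interaction -3.69 ± 0.12 (adjusted p = 1.1e-16). Against the arrays labelled tZ 30 min the leaf change was -0.95 and the root change -0.09, an interaction of -0.87 (adjusted p = 8.2e-05), so CML15 was then a leaf only gene.

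SAT1 (Gene ID 4324655) read 214, 216 and 193 in Leaf tZ and 431, 511 and 437 in Leaf DMSO. It read 4262, 3553 and 4395 in Root tZ and 915, 764 and 819 in Root DMSO. The groups did not overlap in either organ, and the root rise was the larger of the 2 changes. Its interaction was -3.33 ± 0.14 (adjusted p = 4e-15), and 0.76 (adjusted p = 0.0014) against the arrays labelled tZ 30 min, where only the root change, -0.80, was called. CBF3 (Gene ID 4347620), also known as DREB1A, an activator of cold-response genes, read 2330, 2297 and 2541 in Leaf tZ, 11053, 11948 and 11096 in Leaf DMSO, 7001, 6312 and 6480 in Root tZ and 3186, 3395 and 3311 in Root DMSO. Leaf was above root in DMSO and below it in tZ. Its interaction was -3.24 ± 0.11 (adjusted p = 2.7e-16), and -0.34 (adjusted p = 0.11) against the arrays labelled tZ 30 min.

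OsCRSH2, a calcium-activated enzyme of the alarmone ppGpp, fell by 2.24 on the log2 scale in leaf and rose by 0.77 in root. Its Root tZ arrays (190, 164 and 215) overlapped the Root DMSO arrays (175, 91.2 and 64.5), and its interaction of -3.01 (adjusted p = 2.1e-09) was 1.04 (adjusted p = 0.024) against the arrays labelled tZ 30 min. IAA2, of the auxin-degraded Aux/IAA repressors, changed by -1.30 in leaf and 1.25 in root. OsNAC4, a NAC transcription factor, changed by -0.38 in leaf and 1.98 in root. Their interactions were -2.54 (adjusted p = 1.2e-14) and -2.35 (adjusted p = 1.5e-12), and 0.45 and 0.47 (adjusted p = 0.019 and 0.055) against the arrays labelled tZ 30 min.

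The 3 tested genes of abscisic acid synthesis and breakdown were all opposite, lower in leaf and higher in root. Of all probe sets, 7.98% were opposite. OsABA8ox1 (Gene ID 9269675), an abscisic acid 8′-hydroxylase that starts breakdown of the hormone, read 7823, 8078 and 7199.7 in Leaf tZ and 18192, 17852 and 17707 in Leaf DMSO. It read 17395, 12879.7 and 16066 in Root tZ and 7262, 6486 and 6949 in Root DMSO. Leaf was above root in DMSO and below it in tZ. The interaction was -2.37 ± 0.11 (adjusted p = 5e-14), and with the arrays labelled tZ 30 min it remained opposite, at -0.51 in leaf and 0.32 in root (interaction -0.83, adjusted p = 5.8e-05). The second hydroxylase gene, OsABA8ox2, changed by -1.21 in leaf and 1.41 in root, and OsABA1, the zeaxanthin epoxidase of hormone synthesis, by -0.66 in leaf and 1.66 in root. Their interactions were -2.62 and -2.33 (adjusted p = 1.6e-09 and 5.6e-12), and -0.25 and -0.02 (adjusted p = 0.68 and 0.97) against the arrays labelled tZ 30 min. The calls and directions of all 3 held after median shifting and quantile normalization.

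Among the 7 tested chlorophyll synthesis genes, 3 (42.9%) had a leaf response below that of root and 1 (14.3%) above. The shares of all probe sets were 15.9% below and 20.6% above. None of the 7 was called against the arrays labelled tZ 30 min. CAO (Gene ID 4349433), chlorophyllide a oxygenase, which makes chlorophyll b, read 1196, 1260 and 1236 in Leaf tZ and 3011, 2838 and 3023 in Leaf DMSO. It read 629, 548 and 628 in Root tZ and 230, 380 and 244 in Root DMSO. Leaf remained above root in both treatments, but the gap was smaller in tZ. Its interaction was -2.31 ± 0.21 (adjusted p = 2.4e-09). CHLH, the large subunit of magnesium chelatase, changed by -1.49 in leaf and 0.76 in root (interaction -2.25, adjusted p = 7.7e-09). CAO and CHLH stood at -0.18 and -0.19 (adjusted p = 0.76 each) against the arrays labelled tZ 30 min.

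**Figure D4:**
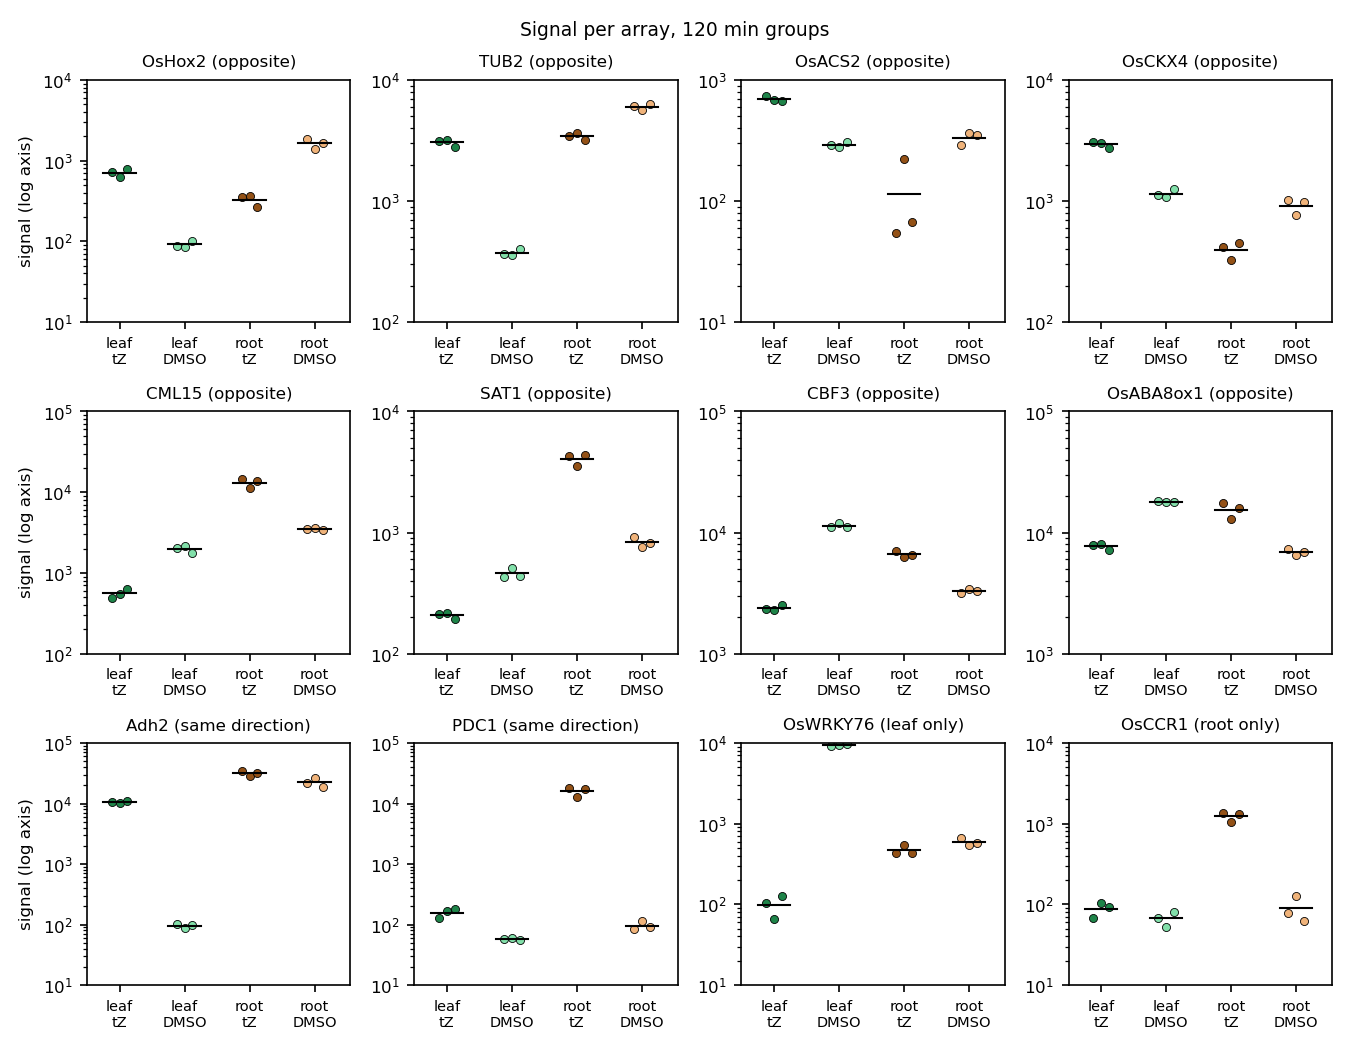
Signal per array (log axis, linear signal units) of 12 named genes in Leaf tZ, Leaf DMSO, Root tZ and Root DMSO at 120 min; points are arrays, bars are means of 3, and titles give the class. In the upper 2 lines of panels the leaf and root groups move in opposite directions; in the lowest, Adh2 and PDC1 rise in both organs by very different amounts.

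In the fermentation and hemoglobin list, 5 of 6 tested genes rose in leaf, 5 rose in root and none fell. Among all probe sets 21.9% rose in leaf and 13.2% in root. In 1 of the 6 the leaf response was above that of root and in 3 below, beside 20.6% and 15.9% of all probe sets. Of these 4, 3 were of the class same direction, different size, which held 13.6% of all interaction calls. Adh2 (Gene ID 4350054), an alcohol dehydrogenase of ethanolic fermentation, read 10531, 10142 and 10806 in Leaf tZ and 100.3, 86.1 and 97.4 in Leaf DMSO. It read 34754, 28399 and 32315 in Root tZ and 22192, 25924 and 18957 in Root DMSO. The signal was thus already high in the arrays labelled Root DMSO and low in those labelled Leaf DMSO. The rise was 6.52 ± 0.10 in leaf and 0.52 ± 0.10 in root, an interaction of 6.01 ± 0.14 (adjusted p = 1e-18).

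PDC1 (Gene ID 4339066), pyruvate decarboxylase of the same pathway, showed the reverse. It read 126, 166 and 181 in Leaf tZ and 58.1, 60.7 and 56.3 in Leaf DMSO. It read 17988, 12794 and 17666 in Root tZ and 83.7, 112.5 and 90.0 in Root DMSO. Only Root tZ was high. The rise was 1.17 ± 0.26 in leaf and 7.12 ± 0.26 in root, an interaction of -5.95 ± 0.37 (adjusted p = 3.9e-12). The non-symbiotic hemoglobin genes NSHB2 and NSHB1 also had larger responses in root, with interactions of -2.22 and -1.45 (adjusted p = 2.1e-10 and 1.4e-08). NSHB2 changed by 1.26 in leaf and 3.48 in root, and NSHB1 by 0.23 and 1.68, of which the leaf change of NSHB1 was not called. None of the 6 genes had an interaction call against the arrays labelled tZ 30 min: Adh2 stood at -0.12, PDC1 at 0.27, NSHB2 at -0.42 and NSHB1 at 0.05 (adjusted p = 0.78, 0.8, 0.2 and 0.92).

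CPDK2, whose synonyms name a pyruvate phosphate dikinase, read 130, 134 and 116 in Leaf tZ, 46.9, 32.1 and 60.1 in Leaf DMSO, 13927, 9829.8 and 13154 in Root tZ and 729.8, 675 and 523 in Root DMSO. It rose by 1.17 in leaf and 4.22 in root, an interaction of -3.05 (adjusted p = 1.8e-09). CDKE-1, named as a cyclin-dependent kinase, rose by 0.65 and 3.39 (interaction -2.74, adjusted p = 1.9e-11), and the CCCH zinc finger gene OsC3H37 by 2.89 and 4.10 (interaction -1.21, adjusted p = 6.4e-10). OsPCL1, a transcription factor of the circadian clock, rose more in leaf, by 2.56 against 0.93 in root (interaction 1.62, adjusted p = 1.6e-09). With labelled tZ 30 min as the other group the interactions were 0.60 for CPDK2, -1.12 for CDKE-1, -0.63 for OsC3H37 and -0.55 for OsPCL1 (adjusted p = 0.27, 0.00047, 0.00031 and 0.025). CDKE-1 then fell in both organs and more in leaf, with changes of -1.58 in leaf and -0.47 in root. OsC3H37 was then leaf only, with a leaf change of -0.65.

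LOGL3 (Gene ID 4331344), of the LOG family that frees active cytokinin from its nucleotide, fell in both organs and far more in leaf. It read 478, 377 and 445 in Leaf tZ and 5611, 4415 and 4487 in Leaf DMSO. It read 152, 369 and 167 in Root tZ and 287, 350.1 and 377 in Root DMSO. The leaf groups did not overlap, whereas in root replicate 2 of tZ lay among the DMSO arrays. The interaction was -2.80 ± 0.27 (adjusted p = 8.6e-09), and 0.14 (adjusted p = 0.87) against the arrays labelled tZ 30 min.

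Of 21 aquaporins tested, 12 fell and 5 rose in leaf, and 13 fell and 2 rose in root. Among all probe sets 19.8% fell and 21.9% rose in leaf, and 21.2% fell and 13.2% rose in root. The leaf response was below that of root for 10 (47.6%) and above it for 4 (19.0%), beside 15.9% and 20.6% of all probe sets. Of the 21, 9 were in the same-direction class, which held 4.97% of all probe sets. OsTIP1, of the vacuolar membrane, read 381, 259 and 357 in Leaf tZ, 3230, 3408 and 3747 in Leaf DMSO, 329, 463 and 307 in Root tZ and 720, 688 and 774 in Root DMSO. It fell by 3.32 on the log2 scale in leaf and fell by 0.97 in root (interaction -2.35, adjusted p = 5.3e-10). OsPIP2;6, of the plasma membrane, fell by 2.27 in leaf and by 0.23 in root (interaction -2.05, adjusted p = 3.6e-12). In the labelled tZ 30 min version the interactions were 0.25 for OsTIP1 (adjusted p = 0.6) and 0.52 for OsPIP2;6 (adjusted p = 0.017), and in the list 3 were above and 1 below, beside 1.55% and 2.49% of all probe sets.

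The value of DREB1G, a relative of CBF3, depended on 1 array. It read 42.2, 53.8 and 67.8 in Leaf tZ, 4327, 4130 and 3948 in Leaf DMSO, 51.1, 1589.9 and 76.5 in Root tZ and 2690, 2514 and 2341 in Root DMSO. Root tZ replicate 2 was far above the other 2 arrays of its group. The interaction was -2.31 ± 0.88 (adjusted p = 0.043) with it and -0.88 (adjusted p = 0.012) without it, and the call was lost in 15 of 22 alternatives that kept the DMSO 120 min groups. Against the arrays labelled tZ 30 min DREB1G stood at -1.65 (adjusted p = 0.38). OsPIN5a, of the auxin carriers, fell by 0.66 in leaf and by 1.65 in root (interaction 0.99, adjusted p = 0.0056), and had an interaction of -0.13 (adjusted p = 0.89) against the arrays labelled tZ 30 min.

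Among leaf only genes, OsWRKY76 (Gene ID 4347069), a WRKY transcription factor of defence and cold responses, had the largest interaction of all named genes. It read 103, 65.3 and 125 in Leaf tZ and 9087, 9519 and 9619 in Leaf DMSO. It read 431, 549 and 429.8 in Root tZ and 665, 546 and 583 in Root DMSO. The leaf groups lay far apart and the root groups overlapped. The leaf change was -6.36 ± 0.16, the root change -0.34 ± 0.16 and the interaction -6.02 ± 0.22 (adjusted p = 4.3e-16). In the labelled tZ 30 min version OsWRKY76 changed by -1.17 in leaf and 0.77 in root, which placed it among the opposite genes (interaction -1.94, adjusted p = 4e-06).

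A peroxidase gene had the largest leaf only rise among named genes. It read 1922, 1781 and 2039 in Leaf tZ, 150.2, 172 and 134 in Leaf DMSO, 97.4, 133 and 125 in Root tZ and 111, 124 and 119 in Root DMSO. The root groups overlapped. Its leaf change was 3.49 ± 0.22, its root change -0.004 and the interaction 3.50 ± 0.31 (adjusted p = 2.2e-09). The interaction was 1.47 (adjusted p = 0.0053) and again leaf only against the arrays labelled tZ 30 min. Os20ox2, the gibberellin 20-oxidase behind semidwarf rice, read 603, 494 and 547 in Leaf tZ, 78.5, 65.7 and 31.5 in Leaf DMSO, 301, 166 and 209 in Root tZ and 177, 141 and 225 in Root DMSO. Its interaction was 2.63 (adjusted p = 4.6e-06), and -0.44 (adjusted p = 0.65) against the arrays labelled tZ 30 min.

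OsRac6, a small GTPase, rose by 2.05 in leaf with a root change of -0.19 (interaction 2.24, adjusted p = 7.8e-11). It was leaf only in both versions, with an interaction of 1.55 (adjusted p = 1.3e-06) against the arrays labelled tZ 30 min. OsPHT3, named as a phosphate transporter, had changes of 1.81 and -0.52 (interaction 2.33, adjusted p = 5.5e-07). Its Leaf DMSO arrays, 17.8, 32.8 and 38.7, lay near the background limit, where the pseudocount shrinks a change. OsCHS1, chalcone synthase of flavonoid production, fell by 1.79 in leaf with a root change of -0.05 (interaction -1.74, adjusted p = 7.8e-09), and by 1.95 in leaf against the arrays labelled tZ 30 min (interaction -2.10, adjusted p = 1.4e-08).

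Among the leaf only falls, CEBIP, the membrane receptor of chitin fragments, fell by 2.74 in leaf with a root change of 0.14 (interaction -2.88, adjusted p = 1.3e-11). CIGR1, a chitin-inducible GRAS factor, read 3682, 3755 and 3731 in Leaf tZ, 18979, 19287 and 18300 in Leaf DMSO, 17147, 17956 and 16348 in Root tZ and 16079, 16690.4 and 16586 in Root DMSO. Leaf was slightly above root in solvent and far below it in tZ (interaction -2.39, adjusted p = 7.1e-18). OsKCO2, a potassium channel, fell by 2.84 in leaf with a root change of -0.08 (interaction -2.76, adjusted p = 2.6e-09). Against the arrays labelled tZ 30 min they were -0.52 for CEBIP, -0.28 for CIGR1, 1.05 for OsKCO2 and -0.42 for OsPHT3 (adjusted p = 0.15, 0.015, 0.013 and 0.55).

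Most ribosomal protein genes rose in leaf. Of 25 tested, 22 rose and 2 fell in leaf, and 1 rose and 8 fell in root. Among all probe sets 21.9% rose and 19.8% fell in leaf, and 13.2% rose and 21.2% fell in root. The leaf response was above that of root for 22 and below for 1, beside 20.6% and 15.9% of all probe sets. By class, 15 were leaf only and 7 opposite, beside 14.0% and 7.98% of all probe sets. The list's median change was 0.86 in leaf and -0.09 in root. RPS26 (Gene ID 4327570), of the small subunit, read 10174, 10509 and 10256 in Leaf tZ, 3297, 3307 and 3150.1 in Leaf DMSO, 8481, 8104 and 8020.4 in Root tZ and 8744, 10226 and 9569 in Root DMSO. Leaf DMSO was the group that stood apart. Its interaction was 1.87 ± 0.09 (adjusted p = 7.4e-14). RPL3 and RPL11 of the large subunit had interactions of 1.61 and 1.30 (adjusted p = 5.4e-14 and 4.1e-08), and rpl5 was the 1 member below, at -0.57 (adjusted p = 0.0056). After median shifting 21 were above and 3 opposite, and after quantile normalization of all arrays 22 were above and 16 opposite. No member was called against the arrays labelled tZ 30 min, and the median interaction was 0.09.

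Of 8 beta-tubulin genes tested, 5 rose and 1 fell in leaf, and 7 fell in root. Among all probe sets 21.9% rose and 19.8% fell in leaf, and 21.2% fell in root. The leaf response was above that of root for 6 (75.0%) and below it for none, beside 20.6% and 15.9% of all probe sets. Rising in leaf and falling in root, 5 were opposite, a class that held 7.98% of all probe sets. OsTUB6 rose by 0.28 in leaf and fell by 0.94 on the log2 scale in root (interaction 1.22, adjusted p = 4.1e-08). After median shifting 2 instead of 5 were opposite. In the labelled tZ 30 min version 2 were called, both above, beside 1.55% of all probe sets, and OsTUB6 stood at 0.81 (adjusted p = 0.00032).

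**Figure D5:**
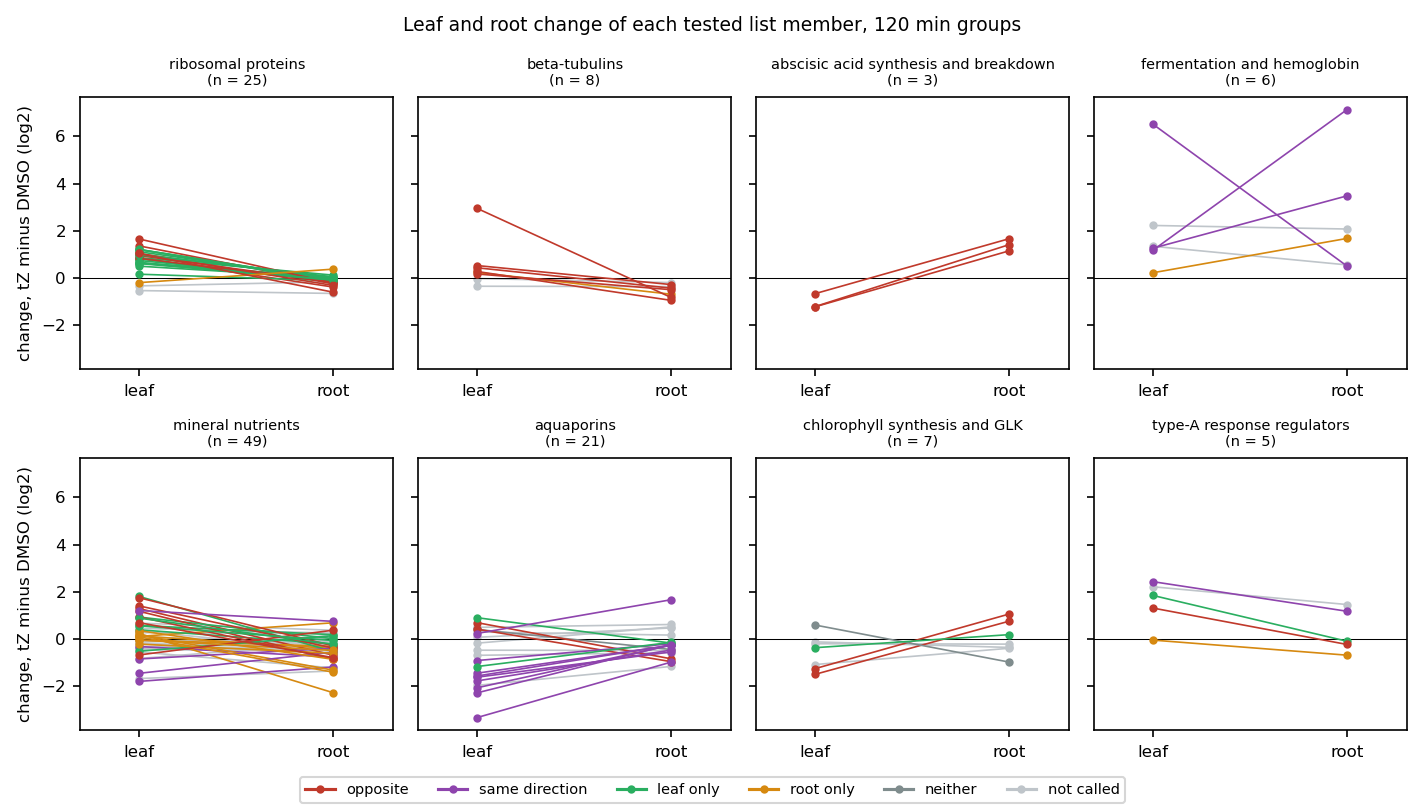
Leaf change and root change (log2, tZ minus DMSO at 120 min) of each tested member of 8 gene lists, joined by a line coloured by class, grey where the interaction was not called. Most lines of ribosomal protein and beta-tubulin genes slope down from leaf to root, those of abscisic acid genes slope up, and the 2 steep crossing lines among fermentation genes are Adh2 and PDC1.

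Among root only genes, an expansin-like gene listed as OsaEXPb2.2 (Gene ID 4349265), of the cell wall loosening proteins, had the largest interaction. It read 258, 224 and 184 in Leaf tZ and 319, 233 and 181 in Leaf DMSO. It read 5090, 3700.3 and 5036 in Root tZ and 519, 436 and 449 in Root DMSO. The leaf groups overlapped and the root groups lay far apart. The interaction was -3.34 ± 0.24 (adjusted p = 6.8e-11). OsCCR1, a cinnamoyl-CoA reductase of lignin formation, read 68.3, 103.6 and 92.1 in Leaf tZ, 67.5, 52.5 and 80.6 in Leaf DMSO, 1338, 1058 and 1313 in Root tZ and 77.4, 128 and 62.5 in Root DMSO. Only Root tZ was above the low level of the other groups, and its interaction was -3.25 ± 0.34 (adjusted p = 3.2e-08). CLPD1, a chaperone subunit of the chloroplast Clp protease, changed by -0.16 in leaf and 2.36 in root (interaction -2.52, adjusted p = 7.1e-12). OsPRR95, a pseudo-response regulator of the clock, changed by 0.04 in leaf and 1.87 in root (interaction -1.83, adjusted p = 2.8e-10). With labelled tZ 30 min as the other group these 4 stood at 0.72, 0.48, -0.03 and 0.06 (adjusted p = 0.11, 0.56, 0.96 and 0.9).

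Nutrient carriers were among the genes that fell in root only. Of 49 tested mineral nutrient genes, 15 rose and 11 fell in leaf, and 4 rose and 25 fell in root. Of all probe sets, 21.9% rose and 19.8% fell in leaf, and 13.2% rose and 21.2% fell in root. The leaf response was above that of root for 22 (44.9%) and below for 6 (12.2%), beside 20.6% and 15.9% of all probe sets. Of these calls 9 were root only, 7 opposite, 7 leaf only and 5 same direction. These classes held 22.2%, 21.9%, 38.5% and 13.6% of all interaction calls. OsAMT1;2 (Gene ID 4330008), an ammonium transporter of root uptake, read 214, 191 and 165 in Leaf tZ and 158, 155 and 156 in Leaf DMSO. It read 602, 1958 and 485 in Root tZ and 4268, 3634 and 4349.7 in Root DMSO. The root groups did not overlap, and Root tZ replicate 2 lay above its group. Its interaction was 2.51 ± 0.40 (adjusted p = 1.6e-05). OsNramp5, the manganese uptake carrier, read 1626, 2676 and 1484 in Root tZ and 4491, 4628 and 4812 in Root DMSO, and 27.3 to 66.4 in leaf. Its interaction was 1.50 ± 0.35 (adjusted p = 0.0015).

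The iron carriers OsIRT1 and OsNramp1 were opposite. OsIRT1 changed by 1.19 in leaf and -0.83 in root (interaction 2.02, adjusted p = 3.3e-07), and OsNramp1 by 0.95 and -0.83 (interaction 1.77, adjusted p = 3.5e-06). The ammonium transporter gene OsAMT3;3 changed by 1.30 in leaf and -0.67 in root (interaction 1.97, adjusted p = 9.4e-10). After median shifting, 14 nutrient genes were above and 7 below. In the labelled tZ 30 min version 3 were above and 3 below, beside 1.55% and 2.49% of all probe sets. There OsAMT3;3 kept an opposite pattern with an interaction of 0.95 (adjusted p = 0.00096). OsAMT1;2, OsNramp5, OsIRT1 and OsNramp1 stood at 0.83, 0.23, 0.42 and 0.45 (adjusted p = 0.31, 0.83, 0.44 and 0.41).

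In the cytokinin pathway itself, 4 of the 5 type-A regulators had a leaf response above that of root and none below. Among all probe sets 20.6% were above and 15.9% below. OsRR4 (Gene ID 4325747) read 4150, 3828 and 4441 in Leaf tZ and 693, 739 and 816 in Leaf DMSO. It read 7345, 5818 and 7501 in Root tZ and 3310, 2615 and 3133 in Root DMSO. It rose in both organs, by 2.44 ± 0.11 in leaf and 1.18 ± 0.11 in root, an interaction of 1.25 ± 0.15 (adjusted p = 2.4e-07). OsRR2 was leaf only, reading 1558, 1620 and 1909 in Leaf tZ, 405, 485 and 474 in Leaf DMSO, 980, 821 and 1230 in Root tZ and 964, 1205 and 1022 in Root DMSO. The root groups overlapped, and the interaction was 1.94 ± 0.24 (adjusted p = 4.3e-07).

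OsRR6 rose by 1.32 in leaf and fell by 0.22 on the log2 scale in root (adjusted p = 0.028), an interaction of 1.54 (adjusted p = 4.7e-11). Its place among the opposite genes was lost in 7 of 22 alternatives, among them median shifting, the 12-array fit, the replicate block and the fits without Root tZ replicate 2 or without Root DMSO replicate 2 or 3. OsRR9 was root only, with changes of -0.04 and -0.68 (interaction 0.64, adjusted p = 6.7e-05). OsRR1 rose in both organs, by 2.22 and 1.47, and its interaction of 0.75 was not called (adjusted p = 0.13). All 5 rose in both organs against the arrays labelled tZ 30 min and were called as larger in leaf, with interactions of 2.04 for OsRR1, 1.28 for OsRR2, 1.94 for OsRR4, 0.70 for OsRR6 and 0.69 for OsRR9 (adjusted p from 9.2e-09 to 0.0018). In that version their class was the same direction in every case, and 1.55% of all probe sets had leaf above root. OsRR4 then rose by 3.48 in leaf and 1.54 in root.

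Of the 3 tested cytokinin dehydrogenases, OsCKX4 was opposite, OsCKX11 rose in both organs and more in leaf (2.62 and 1.73, interaction 0.90, adjusted p = 3.6e-06), and OsCKX5 rose in both without an interaction call (0.94 and 1.25, interaction -0.30, adjusted p = 0.35). In the labelled tZ 30 min version OsCKX5 was the 1 called, larger in root at 2.64 than in leaf at 1.73 (interaction -0.91, adjusted p = 0.024), and OsCKX11 stood at 0.07 (adjusted p = 0.88). Of 8 genes of cytokinin activation, 6 fell and 1 rose in each organ. Among all probe sets 19.8% fell and 21.9% rose in leaf, and 21.2% fell and 13.2% rose in root. Of the 8, 4 had a leaf response below that of root and 1 above, beside 15.9% and 20.6% of all probe sets. LOGL9 fell by 1.51 in leaf and by 0.38 in root (interaction -1.13, adjusted p = 6.7e-07). LOGL1 changed by 0.45 in leaf and -0.68 in root (interaction 1.13, adjusted p = 6.9e-08). With labelled tZ 30 min as the other group LOGL9 stood at -1.11 and opposite (adjusted p = 2.6e-05), and LOGL1 at -0.65 (adjusted p = 0.0021).

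Of 11 receptors, phosphotransfer proteins and type-B regulators, 1 leaf response (9.1%) was above that of root and 3 (27.3%) below, and 7 had no call. The shares of all probe sets were 20.6% above and 15.9% below. OsRRB1, a type-B regulator, read 6074, 5929 and 5948 in Leaf tZ, 9897, 9833 and 10021 in Leaf DMSO, 7215, 6947 and 6987 in Root tZ and 5679, 5907 and 5815 in Root DMSO. It was opposite, with small changes of -0.73 and 0.28 (interaction -1.01 ± 0.07, adjusted p = 2.5e-11). OsHpt5, a phosphotransfer protein gene, fell by 1.60 in leaf and by 0.48 in root (interaction -1.12, adjusted p = 7.5e-06). Both stood lower in size against the arrays labelled tZ 30 min, at -0.21 and 0.40 (adjusted p = 0.09 and 0.22), and none of the 11 was called.

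Other lists are given by their counts, to be read beside the 20.6% of all probe sets with leaf above root and the 15.9% below. In the labelled tZ 30 min version these shares were 1.55% and 2.49%. Leaf was above root for 15 (34.9%) and below for 12 (27.9%) of 43 tested genes of the auxin response families, and 2 were above and 1 below against the arrays labelled tZ 30 min. For 34 cyclin, kinase and inhibitor genes, 11 (32.4%) were above and 10 (29.4%) below, and 1 and 2 in the labelled tZ 30 min version. For 72 calcium sensor and kinase genes, 17 (23.6%) were above, near the share of all probe sets, and 23 (31.9%) below, and 1 and 7 in that version. Heat shock genes had 6 (15.4%) above and 13 (33.3%) below of 39, and 2 and 4 in that version. CCCH zinc finger genes had 13 (29.5%) above and 5 (11.4%) below of 44, and 0 and 1 in that version. Of 9 photosynthesis genes, 6 fell and none rose in leaf, and 4 fell and none rose in root. Among all probe sets 19.8% fell in leaf and 21.2% in root. Of the 9, the leaf response was below that of root for 5 and above for 1. The 6 clock genes had 4 leaf responses below and none above. No photosynthesis or clock gene was called against the arrays labelled tZ 30 min.

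The interaction against the arrays labelled tZ 30 min brought up other genes. Of its 191 calls among named genes, OsChia1a, a chitinase, was lower in leaf, by 1.06, and higher in root, by 0.46. It read 1329, 1163 and 1168 in Leaf tZ 120 min, 2577, 2404 and 2709 in Leaf tZ 30 min, 2191, 2118 and 1945 in Root tZ 120 min and 1622, 1467 and 1454 in Root tZ 30 min (interaction -1.52, adjusted p = 1.5e-08). It was not called against DMSO 120 min (0.24, adjusted p = 0.13). LEA19, of the late embryogenesis abundant proteins, was leaf only in both versions, with interactions of -2.09 (adjusted p = 5.4e-05) against labelled tZ 30 min and -1.25 (adjusted p = 0.0011) against DMSO 120 min. OsCAM-2, named as a calmodulin, rose by 1.69 in root alone (interaction -1.68, adjusted p = 0.0026), but against DMSO 120 min changed by -1.72 in root alone (interaction 1.54, adjusted p = 0.00054). Its Root tZ 120 min arrays, used in both versions, read 1081, 2852 and 989, with replicate 2 well above the others. Of 11 tested genes of diterpenoid phytoalexins, the antimicrobial compounds of rice, 6 (54.5%) had a leaf response below that of root and none above in this version. The shares of all probe sets there were 2.49% below and 1.55% above, and the list's median interaction was -1.14. Against DMSO 120 min, 1 (9.1%) was below and 3 (27.3%) were above, beside 15.9% and 20.6% of all probe sets.

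The 30 min groups gave the same contrast on other arrays, added here after results had been seen. Its interaction was called for 11270 probe sets (36.9%), and 7989 were called at both times with the same sign, 71.8% of the 120 min calls and 70.9% of the 30 min calls, with 98 called with the other sign. Over all probe sets tested, 34.6% were called at 30 min with the sign of their 120 min interaction. Of the 2434 opposite probe sets, 1240 (50.9%) were opposite in the same way at 30 min. Of all probe sets tested, 6.8% were opposite at 30 min in either way. OsHox2, TUB2, Adh2 and PDC1 had 30 min interactions of 3.83, 3.28, 6.26 and -4.42, each with its 120 min sign. The type-A regulators OsRR1 and OsRR4 had 30 min interactions of -1.74 and -1.64 (adjusted p = 0.00065 and 3.2e-09). Their 120 min interactions had the other sign, at 0.75 (not called) and 1.25. The 2 contrasts share no array, but the same filter and estimate of spread served both. If the labels DMSO 120 min and tZ 30 min were exchanged, each contrast would compare 120 min with 30 min within 1 treatment.

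The 120 min interaction minus the 30 min interaction keeps its value whichever way those 2 labels are read. It was called for 971 probe sets (3.18%), 387 higher (1.27%) and 584 lower (1.91%). All 5 type-A regulators were higher, by 2.49 ± 0.53 for OsRR1, 2.66 ± 0.34 for OsRR2, 2.90 ± 0.21 for OsRR4, 1.77 ± 0.15 for OsRR6 and 1.68 ± 0.16 for OsRR9 (adjusted p from 6.7e-09 to 0.0084). OsCKX4 was higher by 2.13 ± 0.28 (adjusted p = 6.4e-05) and OsRac6 by 1.56 ± 0.23 (adjusted p = 0.00024). OsWRKY76 was lower, at -2.33 ± 0.31 (adjusted p = 6.1e-05), as were OsCHS1 at -1.81 ± 0.24 (adjusted p = 4.5e-05), CML15 at -1.60 ± 0.17 (adjusted p = 4.8e-06) and OsHox4 at -1.32 ± 0.23 (adjusted p = 0.0011). Adh2, PDC1, OsHox2 and TUB2 were not called (adjusted p = 0.61, 0.12, 0.29 and 0.099).

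The arrays labelled DMSO 30 min gave the level of each class in the 2 organs. They enter none of the 120 min contrasts, apart from the shared filter and estimate of spread. Of probe sets that rose in leaf and fell in root, 30.9% were higher in leaf than in root there, with a median difference of -0.43, and of those that fell in leaf and rose in root 66.8% were, with a median of 0.46. Over all probe sets tested the share was 43.8% and the median -0.13. In the 120 min groups, which chose the members, the median leaf minus root difference of the first kind was 0.59 in tZ and -0.54 in DMSO, and of the second kind -0.68 in tZ and 0.56 in DMSO.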

How the data were processed

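RNA of 24 samples was measured on 1-colour rice arrays. The authors deposited linear intensity values, 1 for each probe set of each array, with the software not given in the sources used here. Across the deposited table the mean intensity of every array, without its lowest and highest 2%, was 500.07 or 500.08, a common scale.

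Of 57381 probe sets, 187 controls were left out. Intensities were taken as log2(signal + 20) without further normalization. The 30501 probe sets with a mean log2 value above the 40th percentile in both organs were fitted in limma 3.58.1 under R 4.3.3, by lmFit on 24 arrays in 8 groups and eBayes with a trend. Tests were two-sided, with p adjusted by Benjamini and Hochberg over every probe set fitted and called below 0.05. A ± after a log2 change is its standard error. The procedure was also run on simulated data with independent noise and with changes placed in Leaf tZ alone. That run could not check the root only, opposite or same-direction classes, or effects shared between arrays. With 3 arrays per group their number limits the precision, and the pseudocount shrinks changes of dim genes.

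Probe sets were named by the array annotation together with RefSeq (assembly ASM3414082v1, names alone): 22436 had 1 gene, 95 several and 34663 none. They stand for 17905 genes, of which 2451 have a name other than a locus number. Each gene is given by its brightest tested probe set. Of 2358 genes with several, 27 had probe sets called in both directions. Named genes were the largest interactions of each kind, all tested type-A regulators and cytokinin dehydrogenases, and up to 2 genes per direction of each of 34 lists, and not all are described. The lists are patterns of gene names, from which matches that do not belong were removed by name. OsABA1, NSHB1, OsIRT1, OsNramp1, OsNramp5, RPL3, RPL11 and the genes of the labelled tZ 30 min comparison were chosen after their values were seen where that rule did not pick them. The members and lists were chosen with earlier results of these data known.

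Alternatives were other pseudocounts, normalizations, filters, fits and thresholds, each array left out, a replicate block, and the labelled tZ 30 min or DMSO 30 min arrays as the other group. The replicate numbers do not pair arrays: deviations of same-numbered tZ and DMSO arrays correlated at -0.059 to -0.0004.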

Additional observations from a re-analysis of the deposited data

Results flagged for a closer look

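The contrast is itself a test of whether 2 organs respond alike, so every called result differed between groups: 11126 probe sets, and the named genes below by their interaction in log2 units. Dixon's test of single outlying arrays was not run, since it needs groups of at least 4 arrays.

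Among genes that rose in leaf and fell in root these were OsHox2 at 4.97, TUB2 at 3.77, OsACS2 at 2.79, XBOS31 at 2.73, OsGH3-2 at 2.60 and OsCKX4 at 2.52. Among those that fell in leaf and rose in root, CML15 stood at -3.69, SAT1 at -3.33, CBF3 at -3.24, OsCRSH2 at -3.01 and OsABA8ox2 at -2.62. Of genes that moved the same way in both organs, Adh2 stood at 6.01, OsPCL1 at 1.62, PDC1 at -5.95, CPDK2 at -3.05, CDKE-1 at -2.74, LOGL3 at -2.80, OsTIP1 at -2.35, DREB1G at -2.31 and OsPIN5a at 0.99. The call of DREB1G was lost in 15 of 22 alternatives.

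Of leaf only genes, the peroxidase gene stood at 3.498, Os20ox2 at 2.63, OsPHT3 at 2.33, OsRac6 at 2.24, OsWRKY76 at -6.02, CEBIP at -2.88, OsKCO2 at -2.76 and CIGR1 at -2.39. Of root only genes, OsaEXPb2.2 stood at -3.34, OsCCR1 at -3.25, CLPD1 at -2.52 and OsAMT1;2 at 2.51.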

How the results depend on the processing

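Of 69 genes described, 67 kept their call or lack of one under each of the 22 alternatives in which they were tested. These were alternatives of normalization, filter, fit or left-out array. Many of the genes were chosen for a large interaction in these same data, so their kept calls say little of other genes. Under the 60th percentile filter 6 genes had no value, and stricter thresholds were applied to the classes alone. DREB1G lost its call in 15 (adjusted p 0.052 to 0.12) and OsRR1 gained one with a pseudocount of 80, with the 12 arrays alone and with the replicate block. With the replicate block the interaction was called for 33.8% of probe sets, with 2122 opposite, 1296 same direction, 4175 leaf only, 2262 root only and 440 neither; replicate numbers share no known source. After median shifting 4147 calls had leaf above root, and with a 60th percentile filter 249 were in neither organ by itself. When a call also needed a change of 1 log2 unit, the classes held 130 opposite, 262 same direction, 2301 leaf only, 1248 root only and 7185 neither. At an adjusted p below 0.01, 1592 were opposite and 896 same direction. Without Root tZ replicate 2, 11244 were called.

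With labelled tZ 30 min as the other group, 1231 interactions were called, 473 with leaf above root and 758 below, beside 1736 leaf and 3012 root calls. The classes were 73 opposite, 102 same direction, 368 leaf only, 599 root only and 89 neither. Of the 69 genes, 18 kept their sign and their call or lack of one. A further 24 lost a call, 2 gained one and 25 changed sign. There the interaction changed sign for Adh2 (-0.12), CPDK2 (0.60), IAA2 (0.45), LOGL1 (-0.65), LOGL3 (0.14), NSHB1 (0.05), Os20ox2 (-0.44), OsCAM-2 (-1.68), OsCCR1 (0.48), OsCRSH2 (1.04), OsChia1a (-1.52), OsHox4 (-1.27), OsHpt5 (0.40), OsKCO2 (1.05), OsNAC4 (0.47), OsPCL1 (-0.55), OsPHT3 (-0.42), OsPIN5a (-0.13), OsPIP2;6 (0.52), OsPRR95 (0.059), OsTIP1 (0.25), OsaEXPb2.2 (0.72), PDC1 (0.27), SAT1 (0.76) and XBOS31 (-0.50). With labelled DMSO 30 min as the other group the interaction changed sign for OsRR9 (-0.36). There 61 of the 69 genes kept their sign and their call or lack of one, 6 lost a call and 1 gained one. The cause was not tested. Signals near the background limit in 1 organ bound what can be said of dim genes.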
